A study of Homo sapiens with 8 samples.

Results

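The TAM receptors AXL, TYRO3 and MERTK and their ligands GAS6 and PROS1 were examined in ribosome profiling of rhabdoid tumor cells with and without SMARCB1. The 5 genes were chosen by family membership, after gene identifiers without their version had been matched to symbols. The family was chosen because AXL was higher in the libraries with SMARCB1, so the values of AXL in that comparison are a description and support nothing. The family makes up 5 of the 20719 gene IDs counted, and all 5 were among the 11097 genes that passed the filter on low counts.

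The cells were G401, an established line from a rhabdoid tumor of the kidney that lacks SMARCB1, a core subunit of the SWI/SNF chromatin remodelers. A Tet-On construct in each line let doxycycline (Dox) switch on either SMARCB1 or GFP, and cells received 0.1 μg/ml Dox or the equivalent DMSO for 12 h. Several plates were pooled per condition, translating ribosomes were captured with the RiboLace kit, and libraries were made with the LACEseq kit. The 4 groups, with 2 libraries each, are called SMARCB1 DMSO, SMARCB1 Dox, GFP DMSO and GFP Dox. Whether each line is 1 clone was not given in the sources used here. A footprint count holds both the amount of an mRNA and its translation.

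TAM receptors are receptor tyrosine kinases with immunoglobulin-like and fibronectin-like domains outside the cell. GAS6 and PROS1 carry a Gla domain, modified with the help of vitamin K, that binds phosphatidylserine on dying cells, and a separate region that binds the receptors, so they bridge the membranes of neighboring cells. GAS6 activates all TAM receptors, PROS1 mainly TYRO3 and MERTK, and in tumor cells AXL is known for its ties to migration, mesenchymal states and drug resistance.

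Counts on genes were 5924443 and 13700539 in the SMARCB1 DMSO libraries (replicates 1 and 2) and 11407983 and 6005867 in SMARCB1 Dox. They were 12001296 and 14000039 in GFP DMSO and 6933132 and 6429574 in GFP Dox. GFP Dox replicate 1 stood apart, with 56.4% of its reads aligned to more than 1 place against 25.6% to 39.7% in the other libraries. The differences of members and of called pathway genes that use it are therefore also given without it. So are the edgeR counts of calls over all genes and over pathway genes, but not those over the other receptor kinases. Where GFP Dox replicate 2 is left out instead, replicate 1 alone stands for GFP Dox, so counts of calls in those fits rest on it. Levels are CPM, a gene's counts relative to the size of its library as scaled by TMM. With 2 libraries per group, groups can easily lie apart without a difference. Statements that groups or lines do or do not overlap are descriptions, and the share over all genes was not counted. The limit from a count of 0 covers counting error only. The 95% intervals come from the edgeR fit and include the spread between libraries, and p-values measure the spread between these libraries, which may be technical.

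Footprints on SMARCB1 numbered 2553 and 1750 in SMARCB1 Dox, or 245 ± 45.1 CPM (SD, n = 2). It had 0 counts in each of the other 6 libraries, where a count of 0 allows up to 3 counts. The SMARCB1 Dox libraries thus held the gene they are named for. No count of GFP is among the gene IDs, so GFP was not checked.

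Markers of cell types were read in the same libraries. VIM, a mesenchymal intermediate filament, lay between 1212 and 3384 CPM, while the mesenchymal markers FN1 and CDH2 had at most 6 counts and 1 count in a library. The epithelial keratins KRT8 (1227 to 2870 CPM) and KRT18 (746 to 1930 CPM) were abundant, whereas EPCAM and CDH1 had at most 11 and 7 counts in a library. VIM was at 2437 to 3384 CPM in the SMARCB1 line and 1212 to 1622 CPM in the GFP line. It differed between them by a log2 of 0.91 under DMSO and 0.84 under Dox, which was not called (edgeR adjusted p 0.0715 and 0.0882). KRT8 (-0.46 and -0.94) and KRT18 (-0.625 and -0.79) were lower in the SMARCB1 line in all libraries of either treatment and were not called, at edgeR adjusted p-values of 0.57 and 0.0754 for KRT8 and 0.435 and 0.188 for KRT18. Of 5 leukocyte markers, 3 (PTPRC, CD14 and CD163) were at 0 in all libraries, and the lysosomal protein CD68 was the most abundant. The leukocyte markers summed to 16.4 and 23.6 CPM in SMARCB1 DMSO, 15.3 and 23.3 in SMARCB1 Dox, 24.5 and 34.0 in GFP DMSO, and 15.4 and 40.1 in GFP Dox. The 3 endothelial markers, of which VWF was the most abundant, summed to between 0.347 and 1.59 CPM. PF4 and ALB, markers of platelets and hepatocytes, were at 0 in all 8 libraries.

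The receptors share a signature in the kinase domain, shown because it marks the family and because related sequence bears on where a footprint can be placed. Each line gives 51 bases of the longest coding sequence, 5′ to 3′, with the 7 codons of the signature in capitals. In GRCh38 the stretch of AXL lies in exon 18 at chr19:41256540-41256590, that of TYRO3 in exon 17 at chr15:41573396-41573446 and that of MERTK in exon 17 at chr2:112021510-112021560, each on the plus strand.
AXL: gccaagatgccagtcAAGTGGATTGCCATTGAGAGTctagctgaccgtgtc
TYRO3: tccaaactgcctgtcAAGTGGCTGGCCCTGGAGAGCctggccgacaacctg
MERTK: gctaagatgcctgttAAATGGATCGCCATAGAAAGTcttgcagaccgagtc

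AXL and MERTK differed at 10 of the 51 bases, 4 of them in the signature. AXL and TYRO3 differed at 16 bases, 5 of them in the signature, and TYRO3 and MERTK at 19, with 7 in the signature. TYRO3 also has a processed pseudogene, TYRO3P, whose matching stretch is shown because footprints there may fit both places. It lies at chr15:76259592-76259642 on the minus strand of GRCh38, and capitals mark the 3 bases that differ from TYRO3.
TYRO3P: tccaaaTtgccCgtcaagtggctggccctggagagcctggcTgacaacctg

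Words of 30 bases, about the length of a footprint, were compared with the annotated transcripts of other genes. In TYRO3, 537 of 2641 words (20.3%) had an exact copy in TYRO3P, with a longest shared run of 103 bases. In PROS1, 731 of 2095 words (34.9%) had a copy in the unprocessed pseudogene PROS2P, with a longest run of 146 bases. MERTK shared 0 words, and AXL shared 38 (1.43%) with an antisense gene at its own locus. GAS6 shared 257 words (12.8%) with GAS6-AS1, which lies on the opposite strand of the same locus. Reads that align to more than 1 place were not counted, so the copies lower the counts of TYRO3 and PROS1 by an unknown amount. The strand option of the counting was not given in the sources used here, so reads of GAS6 and GAS6-AS1 cannot be told apart where they overlap.

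AXL (ENSG00000167601, chr19:41219223-41261766, plus strand) binds GAS6 with high affinity. Its counts were 241 and 486 in SMARCB1 DMSO, 1135 and 579 in SMARCB1 Dox, 416 and 493 in GFP DMSO, and 226 and 240 in GFP Dox. Its levels were 40.2 and 37.9 CPM in SMARCB1 DMSO, 95.0 and 91.8 CPM in SMARCB1 Dox, 34.2 and 34.2 CPM in GFP DMSO, and 37.4 and 35.5 CPM in GFP Dox. Both SMARCB1 Dox libraries were high and the other 6 lay close together, so SMARCB1 Dox overlapped with no other group. More cells with footprints on a gene and more footprints per cell cannot be told apart in these bulk libraries.

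With Dox in the SMARCB1 line, AXL was at 93.4 ± 2.25 CPM against 39.0 ± 1.65 CPM with DMSO (SD, n = 2 each). The log2 difference was 1.26 (SE 0.229), a 2.39-fold higher level, and it lay between 1.22 and 1.37 over 12 alternative settings. By the log2 difference AXL had place 275 of the 11097 genes, with 2.47% of genes above it. AXL was chosen on this contrast, so no test is given for it or for the other members here. Over all genes, edgeR's quasi-likelihood F-test (Benjamini-Hochberg adjusted) called 2 genes (0.018%) at an adjusted p below 0.05 and a fold above 2. They were SMARCB1 itself and ASS1, an enzyme of arginine synthesis, whose log2 difference was 2.16 (SE 0.293, adjusted p = 0.0185). SMARCB1 stayed called with each library left out, and the call of ASS1 was lost each time. The edgeR adjusted p of ASS1 was 0.252 and 0.463 without SMARCB1 DMSO replicates 1 and 2, and 0.0639 and 0.204 without SMARCB1 Dox replicates 1 and 2. At an unadjusted p under 0.05 there were 552 genes. DESeq2 called 34, and an edgeR fit that blocks on the replicate number called 13 (9 higher and 4 lower).

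The GFP line received Dox with a construct for GFP in place of SMARCB1, in libraries that did not choose AXL. Its values hold for Dox with that construct in that line, and 552 genes were called between the lines under DMSO. AXL was at 36.4 ± 1.34 CPM in GFP Dox and 34.2 ± 0.0198 CPM in GFP DMSO (SD, n = 2 each). Both GFP Dox libraries were above both GFP DMSO libraries, by a small margin. The log2 difference was 0.09 (SE 0.228, 95% interval -0.40 to 0.58), with an adjusted p of 1 from edgeR's quasi-likelihood F-test (Benjamini-Hochberg adjusted). The upper end of the interval is a 1.49-fold higher level. Without GFP Dox replicate 1 the log2 difference was 0.05.

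**Figure D1:**
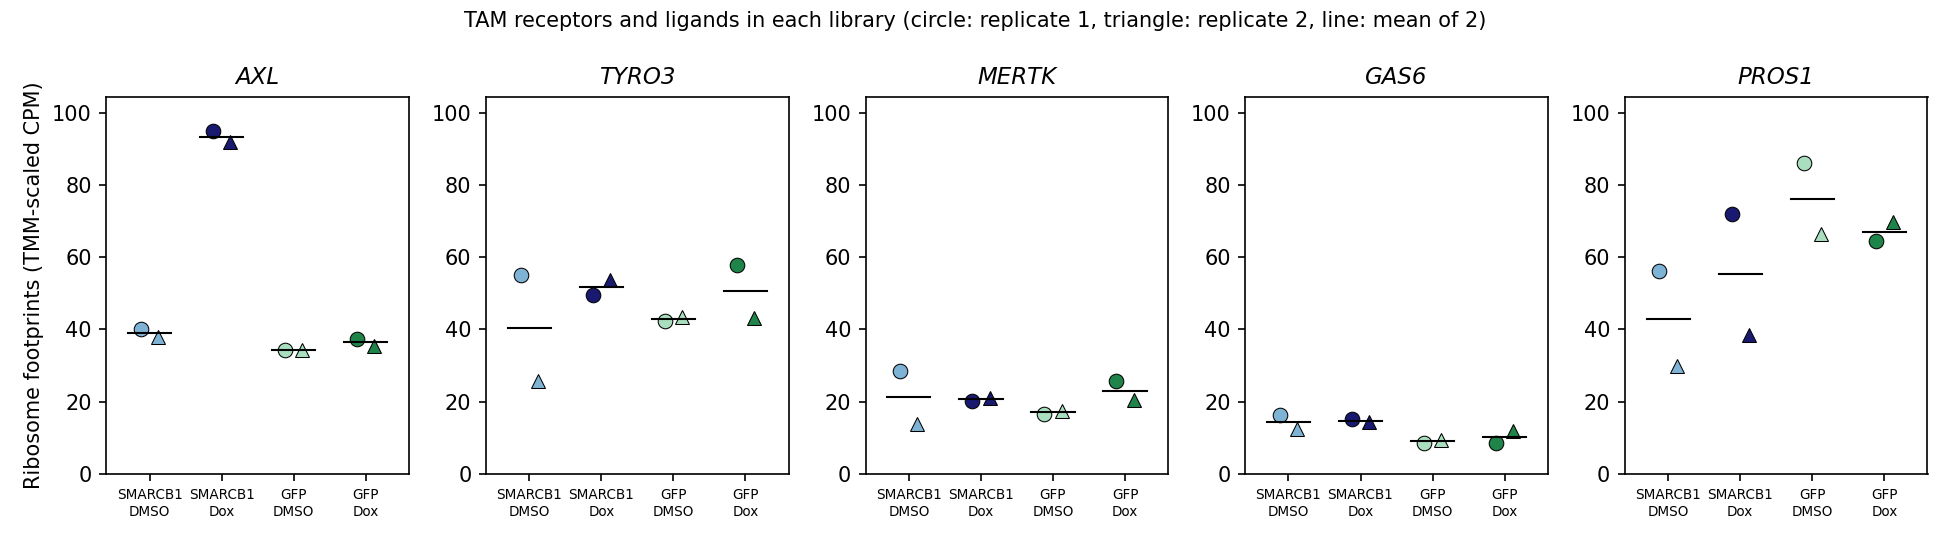
Each panel shows 1 gene, with the 4 groups on the horizontal axis and TMM-scaled CPM of ribosome footprints on the vertical axis (circle: replicate 1, triangle: replicate 2, line: mean of 2 libraries). AXL lies at 95.0 and 91.8 CPM in SMARCB1 Dox and at no more than 40.2 CPM elsewhere, and the SMARCB1 DMSO replicates lie far apart for TYRO3, MERTK and PROS1.

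In the plot of levels by library, the replicates of AXL were close in every group. They were 6.16% apart in SMARCB1 DMSO and 3.46% apart in SMARCB1 Dox. AXL was chosen on the libraries of these 2 groups, so its closeness there is a description only. In GFP DMSO its replicates were 0.082% apart on 416 and 493 counts, closer than counting error alone would usually place them. In SMARCB1 DMSO the higher replicate of TYRO3 was 2.15 times the lower, that of MERTK 2.06 times and that of PROS1 1.88 times.

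TYRO3 (ENSG00000092445, chr15:41557675-41583589, plus strand) is the TAM receptor best known from the nervous system. Its counts were 330 and 329 in SMARCB1 DMSO, 593 and 338 in SMARCB1 Dox, 515 and 623 in GFP DMSO, and 350 and 292 in GFP Dox. Its levels were 55.0 and 25.6 CPM in SMARCB1 DMSO, 49.6 and 53.6 CPM in SMARCB1 Dox, 42.4 and 43.3 CPM in GFP DMSO, and 57.9 and 43.2 CPM in GFP Dox. SMARCB1 DMSO replicate 2 was the lowest library and GFP Dox replicate 1 the highest, and the groups overlapped in each of the comparisons made.

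MERTK (ENSG00000153208, chr2:111898607-112029561, plus strand) serves the uptake of dying cells by macrophages and of photoreceptor tips in the retina. Its counts were 171 and 178 in SMARCB1 DMSO, 242 and 132 in SMARCB1 Dox, 200 and 252 in GFP DMSO, and 155 and 138 in GFP Dox. Its levels were 28.5 and 13.9 CPM in SMARCB1 DMSO, 20.2 and 20.9 CPM in SMARCB1 Dox, 16.5 and 17.5 CPM in GFP DMSO, and 25.6 and 20.4 CPM in GFP Dox. The SMARCB1 DMSO replicates held both the highest and the lowest value, while GFP Dox lay above GFP DMSO without overlap.

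With Dox in the SMARCB1 line, the log2 difference was 0.37 (SE 0.318) for TYRO3 and -0.02 (SE 0.338) for MERTK, as values only. Without SMARCB1 DMSO replicate 1 these were 1.01 and 0.57, and without SMARCB1 DMSO replicate 2 they were -0.09 and -0.47. With all libraries kept, MERTK was at 0.06 with scaling by library size only and at 0.02 with the replicate block. In the GFP line the log2 difference was 0.24 (SE 0.316, 95% interval -0.44 to 0.92) for TYRO3 and 0.44 (SE 0.337, 95% interval -0.28 to 1.16) for MERTK. Each had an adjusted p of 1 from edgeR's quasi-likelihood F-test (Benjamini-Hochberg adjusted). Without GFP Dox replicate 1 the values were 0.01 and 0.26.

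The lines were compared under DMSO to see how they differ before induction, as SMARCB1 line minus GFP line. TYRO3 differed by -0.10 (SE 0.317, 95% interval -0.78 to 0.58) on the log2 scale and MERTK by 0.30 (SE 0.336, 95% interval -0.42 to 1.02). Adjusted p-values from edgeR's quasi-likelihood F-test (Benjamini-Hochberg adjusted) were 0.946 and 0.805. Without SMARCB1 DMSO replicate 2 the value of TYRO3 was 0.36, and without SMARCB1 DMSO replicate 1 that of MERTK was -0.29. Under Dox the lines differed by 0.03 (SE 0.317) for TYRO3 and -0.16 (SE 0.338) for MERTK, with adjusted p-values of 0.974 and 0.848 from the same edgeR test. The sign of TYRO3 turned without SMARCB1 Dox replicate 2 (-0.02) and without GFP Dox replicate 2 (-0.17), and that of MERTK without GFP Dox replicate 1 (0.01). Without that library TYRO3 was at 0.26 and AXL at 1.40. AXL differed by 0.19 under DMSO and by 1.36 (SE 0.23), a 2.56-fold higher level, under Dox. These AXL values share libraries with the contrast that chose it and are given without a test.

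The make-up of the receptors was compared per length, as CPM per kb of the longest coding sequence. AXL made up 33.2% and 49.8% of the summed level of the 3 receptors in SMARCB1 DMSO, 58.3% and 55.9% in SMARCB1 Dox, 37.4% and 36.7% in GFP DMSO, and 31.6% and 36.5% in GFP Dox. TYRO3 made up 30.6% to 49.1% and MERTK 11.1% to 21.1% over the 8 libraries. AXL was above TYRO3 per kb in both SMARCB1 Dox libraries, at 1.91 and 1.71 times its level, and in SMARCB1 DMSO replicate 2, at 1.47 times. In the other libraries the ratio was between 0.643 and 0.818. These ratios include the counts that chose AXL, and TYRO3 counts lack reads from stretches copied in TYRO3P.

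**Figure D2:**
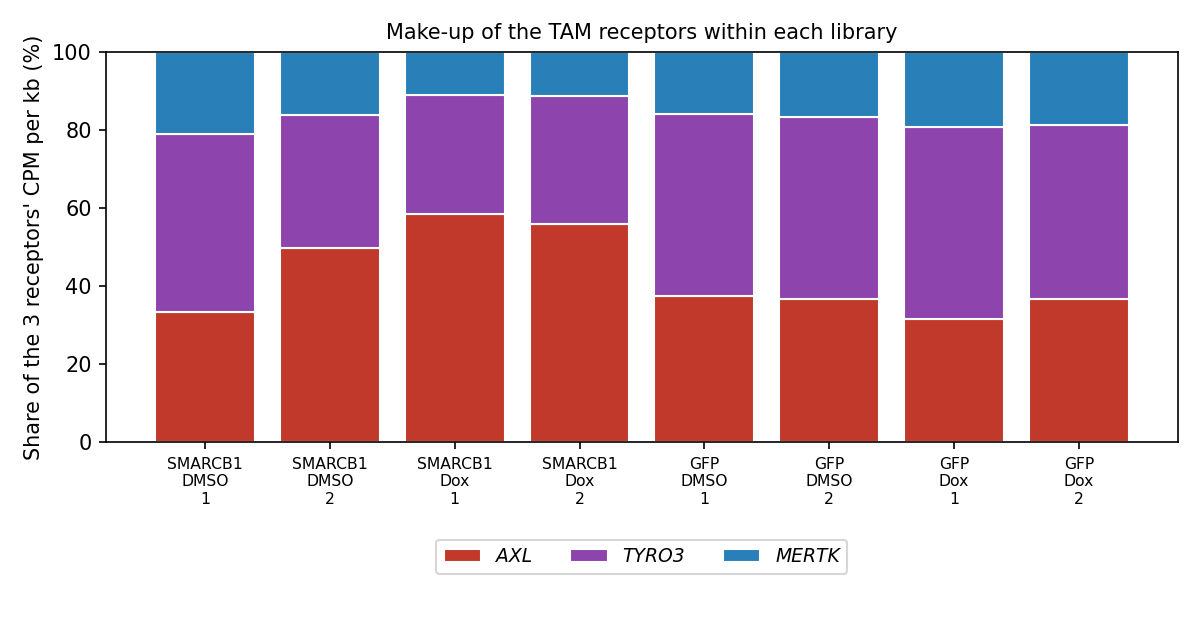
Stacked bars show, for each of the 8 libraries on the horizontal axis, the share (%) of the summed CPM per kb of coding sequence that AXL, TYRO3 and MERTK each hold. AXL holds 58.3% and 55.9% in SMARCB1 Dox and 31.6% to 49.8% in the other libraries.

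The plot of receptor shares shows that SMARCB1 DMSO replicate 2, at 49.8% AXL, lay nearer to SMARCB1 Dox than to its own replicate. Its AXL level of 37.9 CPM was close to that of replicate 1, and its TYRO3 and MERTK levels were the lowest measured. The receptors summed to 45.1 and 28.4 CPM per kb in SMARCB1 DMSO, 60.8 and 61.3 in SMARCB1 Dox, 34.1 and 34.8 in GFP DMSO, and 44.2 and 36.2 in GFP Dox.

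GAS6 (ENSG00000183087, chr13:113820549-113864076, minus strand) is the ligand that binds all TAM receptors. Its counts were 98 and 160 in SMARCB1 DMSO, 181 and 90 in SMARCB1 Dox, 105 and 135 in GFP DMSO, and 52 and 80 in GFP Dox. Its levels were 16.4 and 12.5 CPM in SMARCB1 DMSO, 15.1 and 14.3 CPM in SMARCB1 Dox, 8.64 and 9.38 CPM in GFP DMSO, and 8.60 and 11.8 CPM in GFP Dox. All 4 libraries of the SMARCB1 line were above all 4 of the GFP line, with and without Dox.

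PROS1 (ENSG00000184500, chr3:93873051-93980003, minus strand) encodes protein S, which is also an anticoagulant in blood. Its counts were 336 and 383 in SMARCB1 DMSO, 861 and 242 in SMARCB1 Dox, 1046 and 954 in GFP DMSO, and 389 and 472 in GFP Dox. Its levels were 56.0 and 29.8 CPM in SMARCB1 DMSO, 72.0 and 38.4 CPM in SMARCB1 Dox, 86.1 and 66.3 CPM in GFP DMSO, and 64.4 and 69.8 CPM in GFP Dox. Under DMSO both libraries of the SMARCB1 line were below both of the GFP line, and under Dox the lines overlapped. In each group of the SMARCB1 line replicate 1 was far above replicate 2.

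With Dox in the SMARCB1 line, GAS6 differed by 0.04 (SE 0.329) and PROS1 by 0.38 (SE 0.335) on the log2 scale, as values only. PROS1 was at 0.89 and -0.01 without SMARCB1 DMSO replicates 1 and 2, and at -0.15 and 0.76 without SMARCB1 Dox replicates 1 and 2. In a fit that blocks on the replicate number it was at 0.37 (SE 0.255), and the labels do not say whether replicates of the same number belong together. GAS6 was at -0.15 without SMARCB1 DMSO replicate 2 and at -0.01 without SMARCB1 Dox replicate 1. In the GFP line the log2 difference was 0.18 (SE 0.337, 95% interval -0.54 to 0.90) for GAS6 and -0.18 (SE 0.331, 95% interval -0.89 to 0.53) for PROS1. Both had an adjusted p of 1 from edgeR's quasi-likelihood F-test (Benjamini-Hochberg adjusted). Without GFP Dox replicate 1 the values were 0.39 and -0.13, while GAS6 was at -0.07 without GFP Dox replicate 2 and PROS1 at 0.02 without GFP DMSO replicate 1.

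Between the lines under DMSO, GAS6 was at 14.4 ± 2.74 CPM in the SMARCB1 line and 9.01 ± 0.524 CPM in the GFP line (SD, n = 2 each). The log2 difference was 0.67 (SE 0.331, 95% interval -0.04 to 1.38), which did not pass edgeR's quasi-likelihood F-test (Benjamini-Hochberg adjusted) (adjusted p = 0.408). PROS1 was at 42.9 ± 18.5 CPM against 76.2 ± 14.0 CPM (SD, n = 2 each), a log2 difference of -0.84 (SE 0.335). Its unadjusted p was 0.0254 and its adjusted p 0.240 in the same edgeR test, so it was not called. Without SMARCB1 DMSO replicates 1 and 2 the difference of PROS1 was -1.35 and -0.44 (edgeR adjusted p 0.0847 and 0.717), and without GFP DMSO replicates 1 and 2 it was -0.64 and -1.01 (0.868 and 0.394). With the replicate block it was -0.88 (edgeR adjusted p 0.0601), and without a filter it was -0.85 (0.0486), a fold below 2. Under Dox the difference was 0.52 (SE 0.337) for GAS6 and -0.27 (SE 0.333) for PROS1, with adjusted p-values of 0.443 and 0.723 from edgeR. PROS1 was at 0.11 without SMARCB1 Dox replicate 2. GAS6 was at 0.32 and PROS1 at -0.33 without GFP Dox replicate 1 (edgeR adjusted p 0.768 and 0.766).

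**Figure D3:**
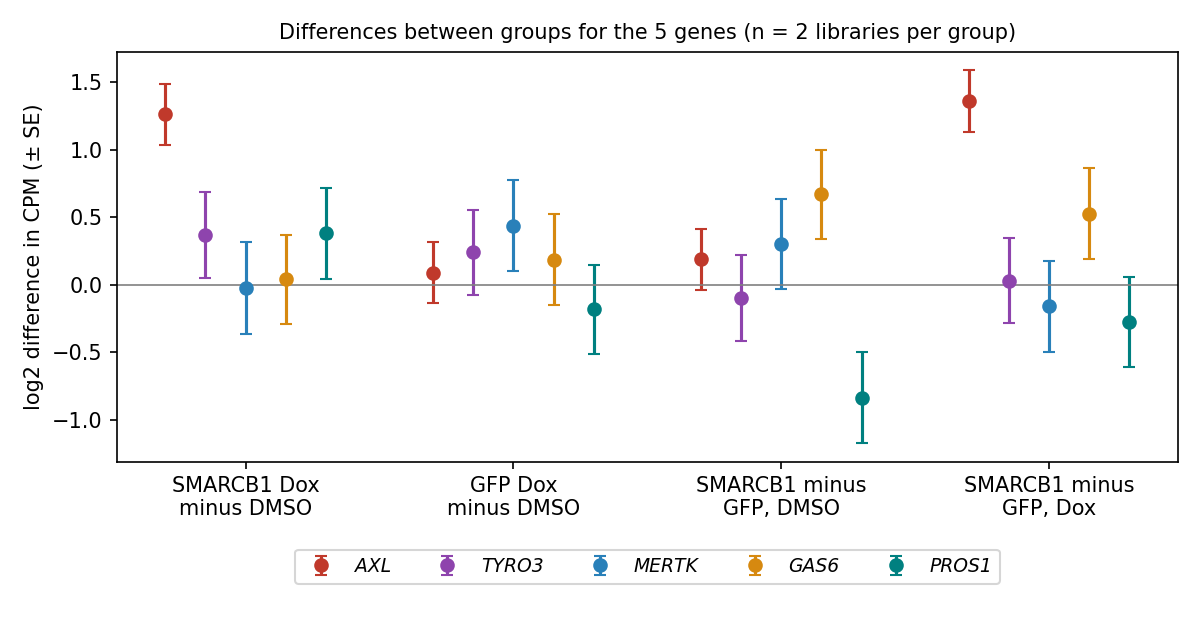
Points give the log2 difference in CPM for each of the 5 genes in 4 comparisons, with bars of 1 SE from the edgeR fit over all 8 libraries (n = 2 libraries per group). AXL lies at 1.26 in SMARCB1 Dox minus DMSO and 1.36 in SMARCB1 minus GFP under Dox, against 0.09 in GFP Dox minus DMSO and 0.19 between the lines under DMSO.

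Over the comparisons in the plot of log2 differences, 0 of 5 members tested in the GFP line were called by edgeR's quasi-likelihood F-test, 0 had an unadjusted p under 0.05 and DESeq2 called 0. Of all genes 0% were called there, with 240 at an unadjusted p under 0.05 and 0 by DESeq2. Over all genes there were 0 calls without GFP Dox replicate 1 and 147 without GFP Dox replicate 2. Between the lines under DMSO 0 of 4 members tested were called by edgeR, 1 (PROS1) had an unadjusted p under 0.05 and DESeq2 called 0, where 4.97% of all genes were called and 13.9% had an unadjusted p under 0.05. Between the lines under Dox 0 of 4 were called by edgeR, 0 had an unadjusted p under 0.05 and DESeq2 called 0, where 6.08% of all genes were called and 18.7% had an unadjusted p under 0.05.

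Over all genes, 552 were called between the lines under DMSO (276 higher and 276 lower in the SMARCB1 line) and 675 under Dox (344 higher and 331 lower). With scaling by library size only these were 520 (241 higher and 279 lower) and 613 (362 higher and 251 lower, or 59.1% higher). The first count was 324 without GFP DMSO replicate 1 and 299 without GFP DMSO replicate 2. The second was 348 without SMARCB1 Dox replicate 1, 379 without SMARCB1 Dox replicate 2, 565 without GFP Dox replicate 1 and 1372 without GFP Dox replicate 2. Comparisons of lines and of Dox share libraries with each other.

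The Dox effect in the SMARCB1 line minus that in the GFP line contains the contrast that chose AXL, so members get values only. It was 1.17 (SE 0.322) for AXL, 0.13 for TYRO3, -0.46 for MERTK, -0.14 for GAS6 and 0.56 for PROS1 on the log2 scale. AXL lay between 1.13 and 1.37 over 15 settings. TYRO3 ranged from -0.33 to 0.77, MERTK from -0.91 to 0.13, GAS6 from -0.35 to 0.11 and PROS1 from 0.03 to 1.08. The values were 1.21 for AXL, 0.36 for TYRO3, -0.28 for MERTK, -0.35 for GAS6 and 0.51 for PROS1 without GFP Dox replicate 1. Over all genes edgeR called 0 (0%), with 443 at an unadjusted p under 0.05 and 1 by DESeq2, and called 0 without GFP Dox replicate 1 and 105 without GFP Dox replicate 2.

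Per kb of coding sequence, the order of mean levels over the 8 libraries was PROS1 at 28.4 ± 8.66 CPM per kb, AXL at 18.9 ± 9.84, TYRO3 at 17.4 ± 3.84, MERTK at 6.82 ± 1.60 and GAS6 at 5.94 ± 1.49 (SD, n = 8). This SD pools the 4 groups, so it cannot tell whether neighbors in that order differ. TYRO3 lay above MERTK in every library. In every library of the GFP line PROS1 lay above TYRO3, TYRO3 above AXL and MERTK above GAS6. In the SMARCB1 line the orders of PROS1 and AXL, TYRO3 and AXL, and MERTK and GAS6 varied between libraries. With only the words that have no distant copy counted as length, a choice made after seeing the data, TYRO3 (22.0 CPM per kb) came before AXL (19.1 CPM per kb). The order differed by group, and TYRO3 was above AXL in SMARCB1 DMSO (15.1 against 14.6 CPM per kb), GFP DMSO (16.04 against 12.76) and GFP Dox (18.9 against 13.6), but not in SMARCB1 Dox (19.3 against 34.8). GAS6 and MERTK were at 7.08 and 7.07 CPM per kb in SMARCB1 DMSO, 7.23 and 6.87 in SMARCB1 Dox, 4.43 and 5.67 in GFP DMSO, and 5.02 and 7.68 in GFP Dox. With merged coding length AXL and TYRO3 were level in SMARCB1 DMSO (14.55 CPM per kb each). By group mean, AXL was the highest of the 5 in SMARCB1 Dox, at 34.8 CPM per kb beside 26.0 for PROS1, but with only the words that have no distant copy PROS1 came first there (40.5 against 35.2). The mean of PROS1 was the highest in the other 3 groups by each of these lengths. By the longest coding sequence it was at 20.2, 35.9 and 31.6 CPM per kb in SMARCB1 DMSO, GFP DMSO and GFP Dox. In SMARCB1 DMSO replicate 2, however, AXL lay just above PROS1 by that length, at 14.12 against 14.05 CPM per kb.

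The ratio of the ligands, PROS1 over GAS6 per kb, was 3.28 and 2.29 in SMARCB1 DMSO, 4.56 and 2.58 in SMARCB1 Dox, 9.54 and 6.77 in GFP DMSO, and 7.16 and 5.65 in GFP Dox. All 4 ratios of the SMARCB1 line were below all 4 of the GFP line. This difference between the lines was not tested.

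Pairs of members were compared by Pearson r of log2 CPM over the 8 libraries, as a description with no p, since libraries of a group share a condition. TYRO3 and MERTK had the highest r, at 0.866, and GAS6 and PROS1 the lowest, at -0.407. AXL had an r of 0.615 with GAS6, 0.33 with TYRO3, 0.145 with MERTK and -0.202 with PROS1.

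By the same measure over 8 libraries, the genes most like AXL were SMARCB1 (0.992), DOP1B (0.99), FLT1 (0.988), TCF7L2 (0.988) and KSR1 (0.972). FLT1, a VEGF receptor, had only 15 and 9 counts in SMARCB1 Dox and at most 1 elsewhere. KSR1, a scaffold of the RAF and MEK kinases, was at 30.3 and 30.9 CPM in SMARCB1 Dox and between 7.30 and 9.63 CPM in the other libraries. TCF7L2, a transcription factor of the Wnt pathway, was at 46.0 and 43.9 CPM in SMARCB1 Dox and between 27.2 and 31.5 CPM elsewhere. The lowest r belonged to the checkpoint kinase CHEK2 (-0.986), RGS2 (-0.975), MCM9 (-0.969), TOM1L2 (-0.957) and PRMT3 (-0.957). CHEK2 was at 12.1 and 13.6 CPM in SMARCB1 Dox and between 25.4 and 33.4 CPM elsewhere. These values rest on the 2 SMARCB1 Dox libraries, and by Spearman's rank correlation the 5 highest were other genes (SYNJ2, DPYSL2, GALNT2, DISC1 and BCL2L1).

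**Figure D4:**
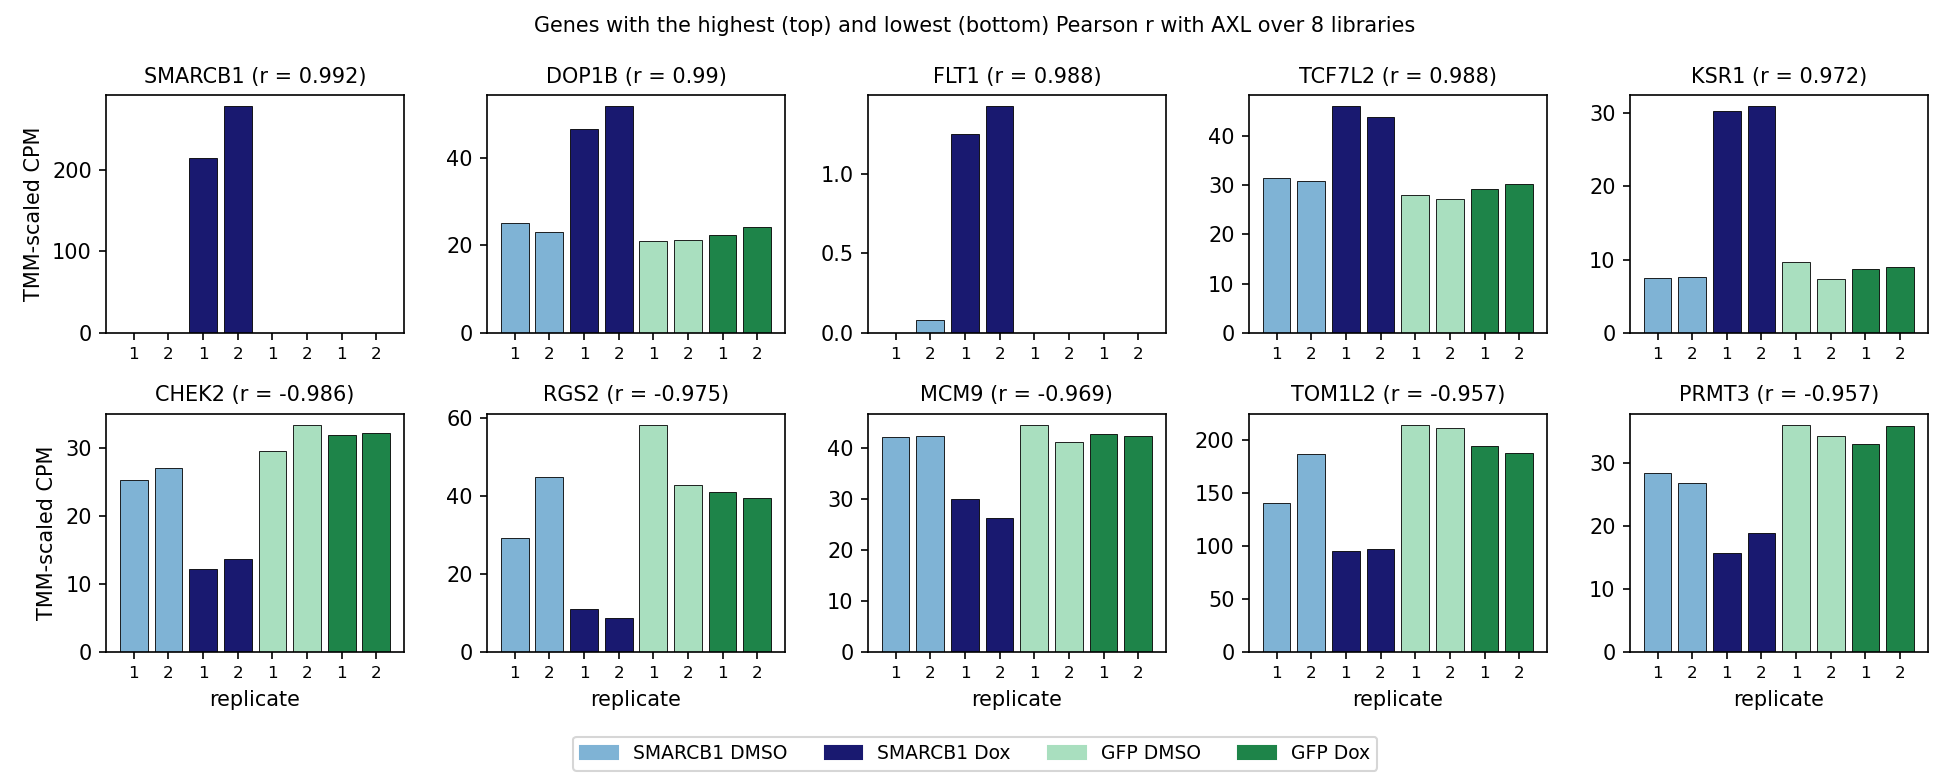
Bars give TMM-scaled CPM in each of the 8 libraries, by replicate and colored by group, for the 5 genes with the highest (top) and the 5 with the lowest (bottom) Pearson r with AXL. The SMARCB1 Dox bars stand out in every panel, as for KSR1 at 30.3 and 30.9 CPM and CHEK2 at 12.1 and 13.6 CPM.

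The plot of genes most and least like AXL shows both SMARCB1 Dox libraries beyond the range of the other 6 libraries for each of these genes. For TYRO3 the highest r was that of EFCAB14 (0.971), SLC30A9 (0.97), PROSER1 (0.968), ATAD3B (0.952) and TMEM106C (0.95), each with its lowest level in SMARCB1 DMSO replicate 2. For MERTK, genes with a high r included FUT10 (0.936), ZRANB1 (0.933), NADK (0.929) and NEPRO (0.927). For GAS6 the highest were IGSF8 (0.978), AGPAT3 (0.968), ZNF841 (0.965), HAND1 (0.964) and PCGF3 (0.961), and for PROS1 CBL (0.986), FBXO43 (0.963), MEX3C (0.963), TEX15 (0.955) and ANKRD13C (0.954). CBL, a ubiquitin ligase of receptor kinases, is also in the list of receptor shedding and turnover.

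The wider pathway was read in 9 lists with 121 genes, of which 83 passed the filter on low counts. In the SMARCB1 line edgeR's quasi-likelihood F-test called 0 of them with Dox, beside 2 of all 11097 genes (0.018%). There was 1 with an unadjusted p under 0.05, beside 552 of all genes, and DESeq2 called 0, beside 34. The median log2 difference of the 83 was 0.04 beside -0.02 for all genes. In the GFP line edgeR called 0, beside 0 of all genes, and DESeq2 called 0, beside 0. There was 1 with an unadjusted p under 0.05, beside 240 of all genes (2.16%). The median of the 83 was 0.08 beside 0.02. Leaving out GFP Dox replicate 1 gave 0 calls, and leaving out GFP Dox replicate 2 gave 2. For the difference of the Dox effects 1 of the 83 had an unadjusted p under 0.05, beside 443 of all genes (3.99%). The median of the 83 was -0.02 beside -0.03. DESeq2 called 0 of the 83, beside 1 of all genes, and edgeR called 0, beside 0. The count was 0 without GFP Dox replicate 1 and 1 without GFP Dox replicate 2.

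Between the lines under DMSO 3 of the 83 were called (3.61%, beside 4.97% of all genes), 1 higher and 2 lower in the SMARCB1 line, with a median of 0.14 beside 0.02. Under Dox 6 were called (7.23%, beside 6.08% of all genes), 4 higher and 2 lower, with a median of 0.01 beside -0.01. Under DMSO 19 of the 83 had an unadjusted p under 0.05 and DESeq2 called 4, beside 1546 and 636 of the 11097 genes. Their median absolute log2 difference was 0.38, beside 0.29 for all genes. Under Dox 15 had an unadjusted p under 0.05 and DESeq2 called 7, beside 2074 and 809 of all genes, with median absolute differences of 0.37 and 0.36. The first count of calls was 1 without SMARCB1 DMSO replicate 2, without GFP DMSO replicate 1 and without GFP DMSO replicate 2. The second was 3 without SMARCB1 Dox replicate 1, 3 without SMARCB1 Dox replicate 2, 7 without GFP Dox replicate 1 and 10 without GFP Dox replicate 2.

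The called genes did not include any of ligand carboxylation and maturation (4 of 6 tested) or of the other Gla-domain proteins (1 of 13 tested). In the first list the calcium-binding protein CALU, an inhibitor of carboxylation, was the highest at 1128 CPM per kb, before the protease FURIN at 17.0. The 1 Gla-domain gene tested, PRRG2, was at 0.916 CPM per kb. Of the other MERTK and TYRO3 ligands (2 of 3 tested), LGALS3, a galectin, was at 169 CPM per kb and TUB, which bridges MERTK to dying cells, at 13.1.

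TUB was at 19.7 and 14.3 CPM in SMARCB1 DMSO, 12.5 and 12.1 CPM in SMARCB1 Dox, 32.1 and 31.7 CPM in GFP DMSO, and 23.5 and 30.6 CPM in GFP Dox. All libraries of the SMARCB1 line were below those of the GFP line. Under Dox it was lower in the SMARCB1 line by a log2 difference of -1.14 (SE 0.294, edgeR adjusted p = 0.03). The call was lost without SMARCB1 Dox replicate 1 (adjusted p 0.208 from edgeR), SMARCB1 Dox replicate 2 (0.21) and GFP Dox replicate 2 (0.0647). It was also lost with scaling by library size only (edgeR adjusted p 0.0985), a filter of 10 counts or more in all libraries (0.0505) and only the groups compared (0.0872), so it held in 6 of 12 alternatives. The log2 difference was -1.32 without GFP Dox replicate 1 (edgeR adjusted p 0.0202).

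Phosphatidylserine exposure, the signal that the ligands bind, had 7 of 12 genes tested and none among the called genes. The flippase subunit TMEM30A in this list was at 101 CPM per kb. Of other phosphatidylserine receptors, bridges and engulfment genes (14 of 21 tested), the chaperone CALR at 2726 and the integrin subunit ITGAV at 320 CPM per kb were the highest. ITGB5, the integrin subunit that pairs with ITGAV, was the 1 gene of this list called. It was called between the lines under Dox, where 6.08% of all genes were called.

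ITGB5 was at 56.9 and 32.3 CPM in SMARCB1 DMSO, 73.3 and 69.4 CPM in SMARCB1 Dox, 19.0 and 21.6 CPM in GFP DMSO, and 8.77 and 20.1 CPM in GFP Dox. The SMARCB1 line was above the GFP line in all libraries. Under Dox the log2 difference was 2.30 (SE 0.373, edgeR adjusted p = 0.00121), and the call held in 12 of 12 alternatives. Without GFP Dox replicate 1 it was 1.83 (edgeR adjusted p 0.00483), and without GFP Dox replicate 2 it was 3.03 (edgeR adjusted p 0.000119).

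Receptor shedding and turnover (8 of 9 tested) held none of the called genes, with the sheddases ADAM10 at 119 and ADAM17 at 50.4 CPM per kb as the highest. The interferon receptor and feedback list (6 of 8 tested) also held none of them, with the kinase JAK1 at 77.3 CPM per kb. JAK1 was between 177 and 205 CPM in the SMARCB1 line and between 307 and 397 CPM in the GFP line. Its log2 difference between the lines was -0.94 (SE 0.236, edgeR adjusted p 0.0304) under DMSO and -0.82 (SE 0.236, edgeR adjusted p 0.0553) under Dox. The DMSO value was not called because its fold was below 2. Downstream adaptors and kinases (24 of 28 tested) were led by the SRC family kinase LYN at 168 and the focal adhesion kinase PTK2 at 147 CPM per kb, and 2 were called between the lines under DMSO (GAB1 and FYN) and 2 under Dox (GAB1 and NCK2), beside 4.97% and 6.08% of all genes.

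GAB1, a docking adaptor for PI3K, was at 16.2 and 18.9 CPM in SMARCB1 DMSO, 16.2 and 17.1 CPM in SMARCB1 Dox, 38.5 and 35.6 CPM in GFP DMSO, and 56.4 and 37.1 CPM in GFP Dox. It was lower in all libraries of the SMARCB1 line, by a log2 difference of -1.07 (SE 0.28, edgeR adjusted p = 0.0376) under DMSO and -1.49 (SE 0.285, edgeR adjusted p = 0.00423) under Dox. The call under DMSO was lost without each of the 4 libraries in turn, at edgeR adjusted p-values of 0.17 and 0.118 without SMARCB1 DMSO replicates 1 and 2 and 0.27 and 0.18 without GFP DMSO replicates 1 and 2. It was also lost when every library had to hold 10 counts or more (edgeR adjusted p 0.0569), so it held in 7 of 12 alternatives. The call under Dox held in 11 of 12 and was lost without SMARCB1 Dox replicate 1 (edgeR adjusted p 0.0775). That difference was -1.16 without GFP Dox replicate 1 (edgeR adjusted p 0.0297).

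FYN, a SRC family kinase, had 5 and 1 counts in SMARCB1 DMSO, 14 and 9 in SMARCB1 Dox, 41 and 71 in GFP DMSO, and 10 and 23 in GFP Dox. It was lower in the SMARCB1 line under DMSO by a log2 difference of -3.47 (SE 0.906, edgeR adjusted p = 0.0377). Without SMARCB1 DMSO replicate 2 the adjusted p from edgeR was 0.32, without GFP DMSO replicate 1 it was 0.125 and without GFP DMSO replicate 2 it was 0.314. The log2 difference was -5.53 and -2.30 without SMARCB1 DMSO replicates 1 and 2, and -3.68 and -3.12 without GFP DMSO replicates 1 and 2. The call was also lost with scaling by library size only (edgeR adjusted p 0.0504), and FYN did not pass a filter of 10 counts or more in all libraries, so the call held in 7 of 12 alternatives. NCK2, an adaptor to the actin cytoskeleton, was higher in the SMARCB1 line under Dox, at 20.1 and 23.5 CPM against 10.3 and 7.84 CPM. Its log2 difference was 1.26 (SE 0.338, edgeR adjusted p = 0.037). The call was lost without SMARCB1 Dox replicate 1 (edgeR adjusted p 0.146), SMARCB1 Dox replicate 2 (0.245) and GFP Dox replicate 2 (0.071). It was also lost with a filter of 10 counts or more in all libraries (edgeR adjusted p 0.052) and only the groups compared (0.0837), so it held in 7 of 12 alternatives. The log2 difference of NCK2 was 1.47 without GFP Dox replicate 1 (edgeR adjusted p 0.044).

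Genes of YAP, TEAD, AP-1 and mesenchymal programs that have been tied to AXL (17 of 21 tested) were led by VIM at 1507 and the matricellular protein CCN2 at 102 CPM per kb. CCN2 was higher in all libraries of the SMARCB1 line. The log2 difference was 0.63 (SE 0.267, edgeR adjusted p 0.287) under DMSO and 0.99 (SE 0.27, edgeR adjusted p 0.041) under Dox. The Dox value was not called because its fold was below 2. ANKRD1, a YAP target, was at 39.7 and 35.3 CPM in SMARCB1 DMSO, 38.7 and 29.3 CPM in SMARCB1 Dox, 0.247 and 0.417 CPM in GFP DMSO, and 1.99 and 0 CPM in GFP Dox. It was high in the SMARCB1 line and near 0 in the GFP line, with and without Dox. The log2 difference was 6.74 (SE 0.673, edgeR adjusted p = 1.24e-05) under DMSO and 5.15 (SE 0.641, edgeR adjusted p = 0.00012) under Dox. The Dox value was 11.42 without GFP Dox replicate 1, which leaves a library at 0, and 4.10 without GFP Dox replicate 2. Both calls were lost with a filter of 10 counts or more in all libraries, which ANKRD1 did not pass.

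CCN1, another YAP target, was at 46.2 and 48.5 CPM in SMARCB1 DMSO, 56.6 and 77.4 CPM in SMARCB1 Dox, 30.9 and 30.9 CPM in GFP DMSO, and 23.8 and 30.8 CPM in GFP Dox. The SMARCB1 line was above the GFP line in all libraries, and the lines were called apart under Dox, at a log2 difference of 1.29 (SE 0.261, edgeR adjusted p = 0.00683). Without SMARCB1 Dox replicate 2 the value was 1.05 (edgeR adjusted p 0.118), and without GFP Dox replicate 1 it was 1.12 (edgeR adjusted p 0.0411).

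Among 58 receptor tyrosine kinases, 32 passed the filter on low counts and 9 had no count. The highest levels were those of FGFR2 at 293, PTK7 at 167, FGFR1 at 117, IGF1R at 63.8 and PDGFRB at 59.7 CPM per kb. PDGFRB was lower in the SMARCB1 line, by a log2 difference of -0.42 (edgeR adjusted p 0.446) under DMSO and -0.83 (0.0362) under Dox. The Dox value was not called because its fold was below 2. By mean level AXL had place 12, TYRO3 place 14 and MERTK place 19. AXL had place 14 in SMARCB1 DMSO, 10 in SMARCB1 Dox, 15 in GFP DMSO and 14 in GFP Dox, while TYRO3 had places 13, 14, 12 and 12 and MERTK 16, 17, 19 and 19. By log2 difference with Dox in the SMARCB1 line AXL had place 7 of the 32 kinases tested. Above it were FLT1 (4.38), EPHB1 (2.65), PDGFRA (2.44), EPHA5 (2.43), FGFR3 (1.35) and EPHB2 (1.35). FGFR3 was at 2.14 CPM per kb in SMARCB1 DMSO and 5.53 in SMARCB1 Dox. The others above AXL were at 1.29 or less in both of these groups.

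**Figure D5:**
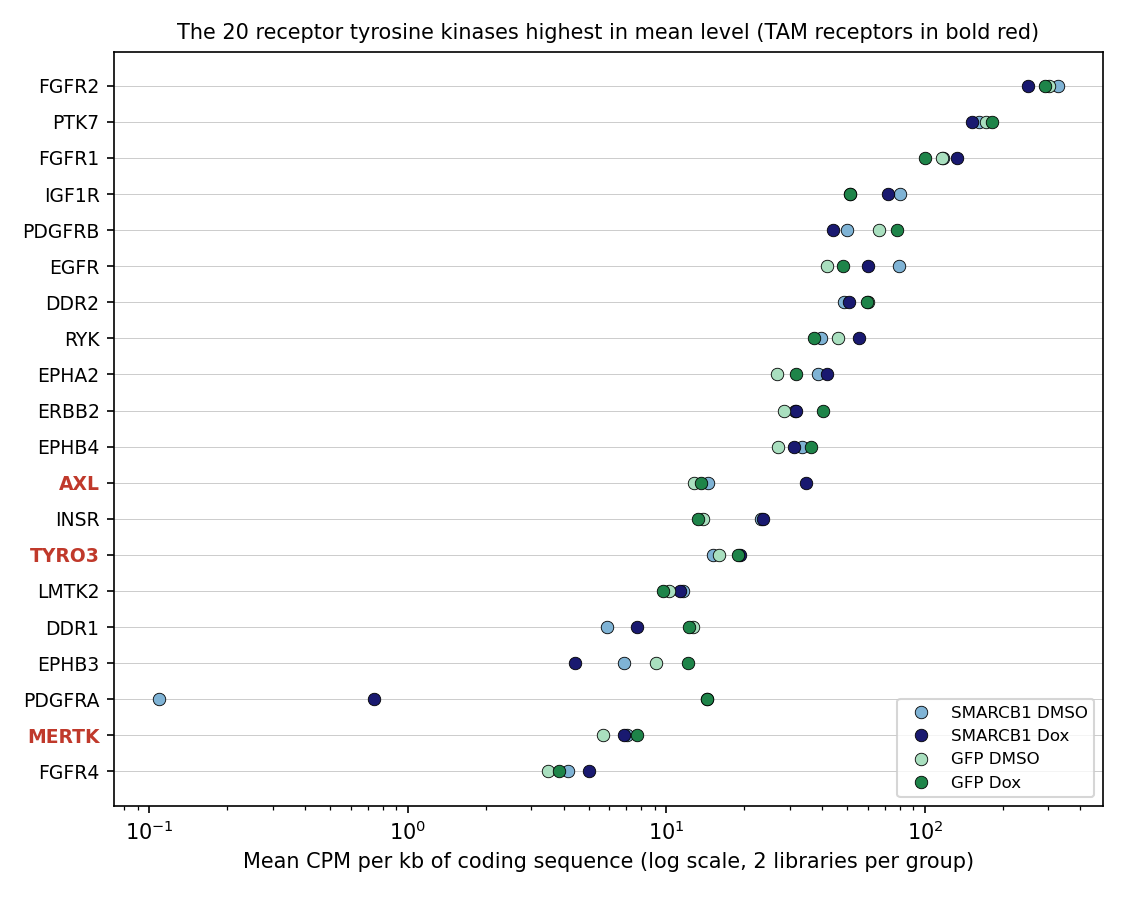
Points give the mean CPM per kb of coding sequence (log scale, 2 libraries per group) of the 20 receptor tyrosine kinases highest in mean level, colored by group. AXL moves between 12.8 CPM per kb in GFP DMSO and 34.8 in SMARCB1 Dox, while FGFR2 leads at a mean of 293 and PDGFRA is near 0 in the SMARCB1 line.

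Of the 29 tested kinases other than the TAM receptors in the plot of kinase levels, edgeR's quasi-likelihood F-test called 3 lower in the SMARCB1 line under DMSO (10.3%, beside 4.97% of all genes), namely PDGFRA, EPHA5 and DDR1. Under Dox 1 was called higher (EPHB1) and 5 lower (PDGFRA, EPHA5, ERBB3, EPHB3 and CSF1R), or 20.7% beside 6.08% of all genes. With Dox in the SMARCB1 line edgeR called 0 of the 29, 5 had an unadjusted p under 0.05 (17.2%, beside 4.97% of all genes) and DESeq2 called 0. In the GFP line edgeR called 0, 0 had an unadjusted p under 0.05 (beside 2.16%) and DESeq2 called 0. For the difference of the Dox effects edgeR called 0, 3 had an unadjusted p under 0.05 (10.3%, beside 3.99%) and DESeq2 called 0. Between the lines 10 had an unadjusted p under 0.05 under DMSO (34.5%, beside 13.9%) and 12 under Dox (41.4%, beside 18.7%), and DESeq2 called 4 and 6. PDGFRA, a receptor for platelet-derived growth factor, was at 0.167 and 0.545 CPM in SMARCB1 DMSO, 1.67 and 3.17 CPM in SMARCB1 Dox, 47.5 and 45.9 CPM in GFP DMSO, and 56.4 and 37.7 CPM in GFP Dox. EPHA5, EPHB1 and CSF1R were below 6 CPM in every library. The call of PDGFRA held with each library left out. Under DMSO the calls of DDR1 and EPHA5 were lost without each of the 4 libraries (SMARCB1 DMSO and GFP DMSO, replicates 1 and 2), at edgeR adjusted p-values of 0.0632 to 0.229 and 0.0914 to 0.317. Under Dox those of ERBB3 and EPHB3 were lost without SMARCB1 Dox replicate 1, at edgeR adjusted p-values of 0.0827 and 0.114. EPHA5 and CSF1R were lost without that library (edgeR adjusted p 0.278 and 0.345), without SMARCB1 Dox replicate 2 (0.0743 and 0.253) and without GFP Dox replicate 1 (0.118 and 0.154). The call of CSF1R was also lost with scaling by library size only (edgeR adjusted p 0.0727), the replicate block (0.0511) and the robust fit (0.0502), so it held in 5 of 12 alternatives. PDGFRA, EPHA5, EPHB1 and CSF1R did not pass a filter of 10 counts or more in all libraries. The call of EPHB1 was lost without each of the 4 Dox libraries (edgeR adjusted p 0.0596 to 0.299).

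The coding genes nearest to AXL on chromosome 19 were read as a check of the region. CYP2F1 had 0 counts in all libraries and CYP2S1 had 3 counts in 1 library. HNRNPUL1, an RNA-binding protein whose gene starts 730 bases after AXL, differed by 0.14 (SE 0.252, edgeR adjusted p = 1) with Dox in the SMARCB1 line. TGFB1, a cytokine gene 39821 bases away, was at 10.8 and 5.69 CPM in SMARCB1 DMSO, 15.9 and 20.6 CPM in SMARCB1 Dox, 19.6 and 31.5 CPM in GFP DMSO, and 16.7 and 38.3 CPM in GFP Dox. Its log2 difference with Dox in the SMARCB1 line was 1.17 (SE 0.434, edgeR adjusted p = 0.781), which was not called. Under DMSO TGFB1 was called lower in the SMARCB1 line, at -1.67 (SE 0.431, edgeR adjusted p = 0.0359). That call was lost without SMARCB1 DMSO replicate 2 (edgeR adjusted p 0.338), without GFP DMSO replicate 2 (0.359), with library size only (0.0625) and when every library had to hold 10 counts or more (0.0629). Under Dox the difference was -0.60 (SE 0.414, edgeR adjusted p = 0.48), and it was -1.08 without GFP Dox replicate 1 (edgeR adjusted p 0.153) and 0.12 without GFP Dox replicate 2 (0.875).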

How the data were processed

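Ribosome footprints of 8 libraries in 4 groups were analysed from the raw counts per gene deposited by the authors, who aligned reads with STAR to hg38 and counted them with HTSeq on coding sequence of GENCODE 42 (intersection-strict mode). Versions and the strand option were not given in the sources used here. The 5 HTSeq totals of unassigned reads were set aside. Gene IDs without version were named from GENCODE 44, and 293 of 20719 had no match. Library totals ran from 5924443 to 14000039 counts. Groups came from the sample titles.

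In R 4.3.3, edgeR 4.0.16 (limma 3.58.1) was used with filterByExpr by group, TMM and 1 quasi-likelihood fit with a term per group over all 8 libraries. Benjamini-Hochberg adjustment ran over all 11097 genes, and genes were called at an adjusted p below 0.05 and a fold above 2. SEs are the log2 difference over the root of F. The script was tested on simulated data. Alternatives were DESeq2 1.42.0, other scaling, other filters, a robust fit, a replicate block, only the groups compared, and leaving out each library. CPM per kb used the longest coding sequence, and likeness was Pearson r of log2 CPM with a prior count of 2.

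Members and lists were chosen with earlier results of these data known. Genes named were drawn from the members, SMARCB1, the 2 highest per kb and every called gene of each pathway list, the 5 most and least like AXL, the 5 most like each other member, the 5 highest receptor tyrosine kinases and the 2 nearest coding genes on each side of AXL. The markers, ASS1 and the genes given by rank correlation were named beside these.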

Additional observations from a re-analysis of the deposited data

Results flagged for a closer look

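For CCN1, PDGFRB and EPHB3 both Dox libraries lay on opposite sides of both DMSO libraries in the 2 lines. The margin of CCN1 in the GFP line was small, with GFP Dox replicate 2 at 30.76 CPM and GFP DMSO at 30.93 and 30.85 CPM. Such opposite sides were seen in 3 of the 40 members and named genes (7.5%). Over the 117 members, pathway genes and receptor kinases tested there were 4 (3.42%), beside 517 (4.66%) of all 11097 genes. CCN1 and EPHB3 had been picked because they were called between the lines under Dox, in the same libraries. The Dox effect in the SMARCB1 line minus that in the GFP line was 0.67 on the log2 scale for CCN1, -0.41 for PDGFRB and -1.05 for EPHB3. Without GFP Dox replicate 1 it was 0.50, -0.33 and -0.84. The edgeR test of this difference gave an adjusted p of 0.981 for each, so none was called.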

How the results depend on the processing

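Of 156 tested member values under alternatives, 148 kept direction and side of the threshold, 8 turned sign and 0 became called. Of 159 values without a test, 146 moved by less than 1 SE and 13 by more, and 14 had the opposite sign. The causes were not tested.

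With Dox in the SMARCB1 line the 2 calls became 34 by DESeq2, 46 without a filter, 1 with at least 10 counts in every library, 13 with the replicate block, 5 with only the groups compared, and 1 to 2 with a library left out. In the GFP line 0 became 14 without a filter and 0 to 147 with a library left out, and the pathway count 1 and 0 to 2. Between lines under DMSO 552 became 288 with at least 10 counts and 299 to 438 with a library left out, and the pathway count 0 and 1 to 3. Under Dox 675 became 377 and 348 to 1372, and the pathway count 3 and 3 to 10. For the difference of Dox effects 0 became 1 by DESeq2, 15 without a filter and 0 to 105 with a library left out, and the pathway count 0 to 1. The replicate block gave 0, 603, 734 and 0 calls in these 4 comparisons.

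With a library left out, log2 differences ran from -0.071 to 0.39 for GAS6 and -0.36 to 0.016 for PROS1 in the GFP line, and under DMSO from -0.74 to 0.36 for TYRO3 and -0.29 to 0.75 for MERTK. Under Dox they ran from -0.17 to 0.26 for TYRO3, -0.32 to 0.012 for MERTK and -0.81 to 0.11 for PROS1. A lone library is assumed to vary like the other groups.

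The labels do not say whether replicates of the same number belong together. Of 6 pairs of groups, r of their replicate differences was above 0.1 in 5, and over all 6 it ran from 0.0454 to 0.28. Scaling by library size only moved the median of all genes to 0.112 under Dox and 0.161 in the difference.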
